A study of Canis lupus familiaris with 15 samples.

Results

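The 52 genes described here encode proteins of the cytosolic ribosome. They were chosen by symbol from the 5246 genes named on the array: RPL or RPS followed by a number, or RPSA, RPLP0, RPLP1 or RPLP2. RPL8 and RPL30, the kinases whose symbols start with RPS6K, and symbols with a further suffix such as RPL22L1 were left out. Of the 52 members, 23 belong to the small subunit and 29 to the large subunit. They were measured by 126 probes, 17 genes by 1 probe and 35 by more, with at most 7 probes for a gene.

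The series compared 3 canine mammary tumour cell lines with each other on 15 spotted cDNA arrays, each hybridised with a pair of lines in Cy3 and Cy5. P114 is a line from a carcinoma of anaplastic type. CMT-U335 came from a mammary osteosarcoma, and CMT-U229 from a mixed tumour that was benign. Each pair of lines was run on 5 arrays, with RNA from untreated cultures close to confluence that had been amplified before labelling. The labels name no treatment or genotype, and each tumour type is represented by 1 line, so a difference between lines is not a difference between tumour types.

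A cytosolic ribosome joins a small subunit, which reads the mRNA, to a large subunit, which forms the peptide bonds. Its proteins are made in near-equal amounts and assembled with ribosomal RNA in the nucleolus, and their mRNAs belong to the most abundant in a growing cell. Most of these mRNAs start with a 5′ terminal oligopyrimidine (TOP) tract, through which the kinase mTOR sets how strongly they are translated, so mRNA levels and protein output need not move together.

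Each value is a log2 ratio of one line over another on 1 array, and the probes of a gene were averaged. A mean is given with limma's moderated standard error (SE) over 5 arrays, which draws each gene's variance toward that of all genes. A gene is called when limma's test of the mean against 0 had an adjusted p (Benjamini-Hochberg over all 5246 genes) below 0.05. Whether a deposited ratio is Cy5 over Cy3 or the inverse is not stated. The former was assumed, so directions are likely but unsettled, and if the assumption is wrong, higher and lower change places throughout. By the labels the 5 arrays are biological replicates of their pair, but the series design mentions swapped dyes and a minimum of 1 biological replicate, so p-values measure the spread between these arrays, which may be partly technical. Ratios carry no level of a gene, so no gene's abundance is set against another's. In such bulk RNA, fewer cells of a type and less RNA per cell cannot be told apart, and because the arrays were centred (medians from -0.0067 to 0.013), a shift of most genes together would not be seen.

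As a check of the labels, the epithelial genes EPCAM and KRT18 were higher in P114 than in CMT-U335, at 3.55 ± 0.15 and 3.48 ± 0.19, and all 3 measured epithelial markers were called in that pair, with the mean of KRT8 at 2.46 ± 0.20. Of 6 measured markers of mesenchyme and bone, 3 were called higher in P114 than in the osteosarcoma line, namely SPP1 at 4.12 ± 0.18, FN1 at 1.18 ± 0.19 and SPARC at 0.56 ± 0.17. COL1A2, which encodes a chain of type I collagen, was the only one called lower, at -1.39 ± 0.14, so this list did not follow the tumour types of the labels. CD14 was called among 4 measured leukocyte markers (0.36 ± 0.10 in the same pair), and neither of the 2 measured endothelial markers was called in any pair. As ratios, these values do not show whether a marker is absent from a line.

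Before single genes are described, the arrays have to be set apart, because the ribosomal genes moved together from array to array. In P114 over CMT-U335 the median of the 52 genes was 0.13, 0.44, 0.34, 0.26 and -0.39 on replicates 1 to 5. Replicate 5 stood apart: 8 of the 52 genes lay above 0 on it, against 48 on replicate 2. For P114 over CMT-U229 the medians were -0.0054, 0.34, 0.11, -0.15 and -0.047, with 47 genes above 0 on replicate 2 and 18 on replicate 4. They were 0.21, -0.022, 0.071, 0.025 and 0.46 in CMT-U229 over CMT-U335, and replicate 5 was the highest with 47 genes above 0. The medians of all genes stayed between -0.081 and 0.061 over the same 15 arrays.

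Part of the spread of each member over the arrays was shared with the others. The median SD of a member over the 5 arrays was 0.37 in P114 over CMT-U335, 0.23 in P114 over CMT-U229 and 0.28 in CMT-U229 over CMT-U335, beside 0.22, 0.23 and 0.21 for all genes. With each array set to the ribosomal median, the members' SDs were 0.17, 0.18 and 0.17.

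**Figure D1:**
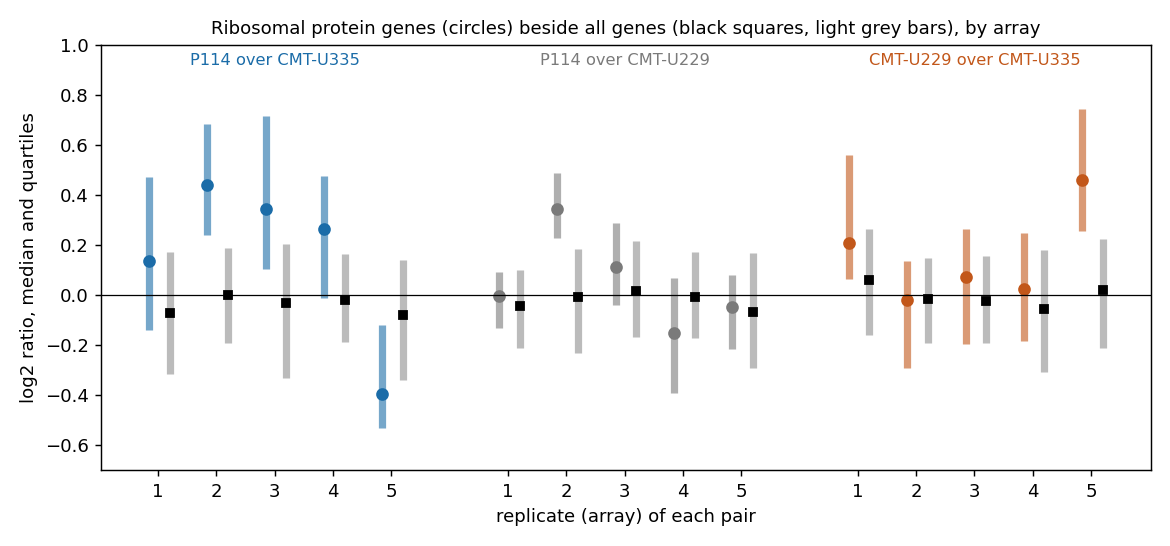
Log2 ratio on each of the 15 arrays, with the median (symbol) and quartiles (bar) of the 52 ribosomal protein genes as circles and of all 5246 genes as black squares with light grey bars. The ribosomal median ranges from -0.39 (P114 over CMT-U335, replicate 5) to 0.46 (CMT-U229 over CMT-U335, replicate 5), while the median of all genes stays between -0.081 and 0.061.

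As a class, the ribosomal protein genes were more often higher than lower against CMT-U335. In P114 over CMT-U335, limma called 12 higher and 1 lower, or 23.1% and 1.92% of the 52, beside 7.89% and 14.4% of all genes. Counted in either direction the share was 25%, close to the 22.3% of all genes. For CMT-U229 over CMT-U335, 12 were called higher and 2 lower, 23.1% and 3.85% of the members beside 8.77% and 8.58% of all genes (17.3% in either direction). Only 1 was called higher and 1 lower, 3.85% of the members beside 7.3% of all genes (3.32% higher and 3.98% lower), in P114 over CMT-U229.

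The differences of the class were small. The median of the members' mean log2 ratios was 0.15, 0.046 and 0.16 in P114 over CMT-U335, P114 over CMT-U229 and CMT-U229 over CMT-U335, beside -0.023, -0.011 and -0.0050 over all genes. Means lay above 0 for 36, 34 and 37 of the 52 genes (69.2%, 65.4% and 71.2%), beside 45.2%, 46.5% and 48.9% of all genes. A difference of at least 2-fold was found for 1, 0 and 2 members (1.92%, 0% and 3.85%), beside 4.06%, 2.12% and 3.20% of all genes. The first and last of these pairs share the line CMT-U335, so their values stand side by side and are not independent. In both of them all 3 measured epithelial markers were called higher too, with means of 2.46 to 3.55 in P114 and 0.79 to 2.56 in CMT-U229. Their part in the result was not tested.

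The number of members called in P114 over CMT-U335 depended on each of its arrays. Without replicate 5, 22 were called higher and 1 lower, beside 7.51% and 10.9% of all genes, and the median was 0.25. Without replicate 1, 2, 3 or 4 in turn, 6, 6, 5 and 7 were called higher, beside 6.56%, 6.65%, 5.91% and 5.85% of all genes. Leaving out 1 array of CMT-U229 over CMT-U335 gave 7 to 9 higher, beside 7.53%, 5.99%, 6.21%, 7.55% and 5.81% of all genes without replicates 1 to 5, with 7 members and a median of 0.065 without replicate 5. With each array set to the ribosomal median, an alternative chosen after seeing the data that lowered all genes by 0.16, 0.050 and 0.15 on average in the 3 pairs, the calls were 6 higher and 4 lower (beside 3.22% and 14.5% of all genes), 1 and 2 (1.85% and 3.09%), and 7 and 7 (4.46% and 11.9%). Of the 29 calls in the 3 pairs, 18 were kept with that centring. RPS24, RPS27A, RPS13, RPS3 and RPL7 were then still called higher in both pairs with CMT-U335.

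**Figure D2:**
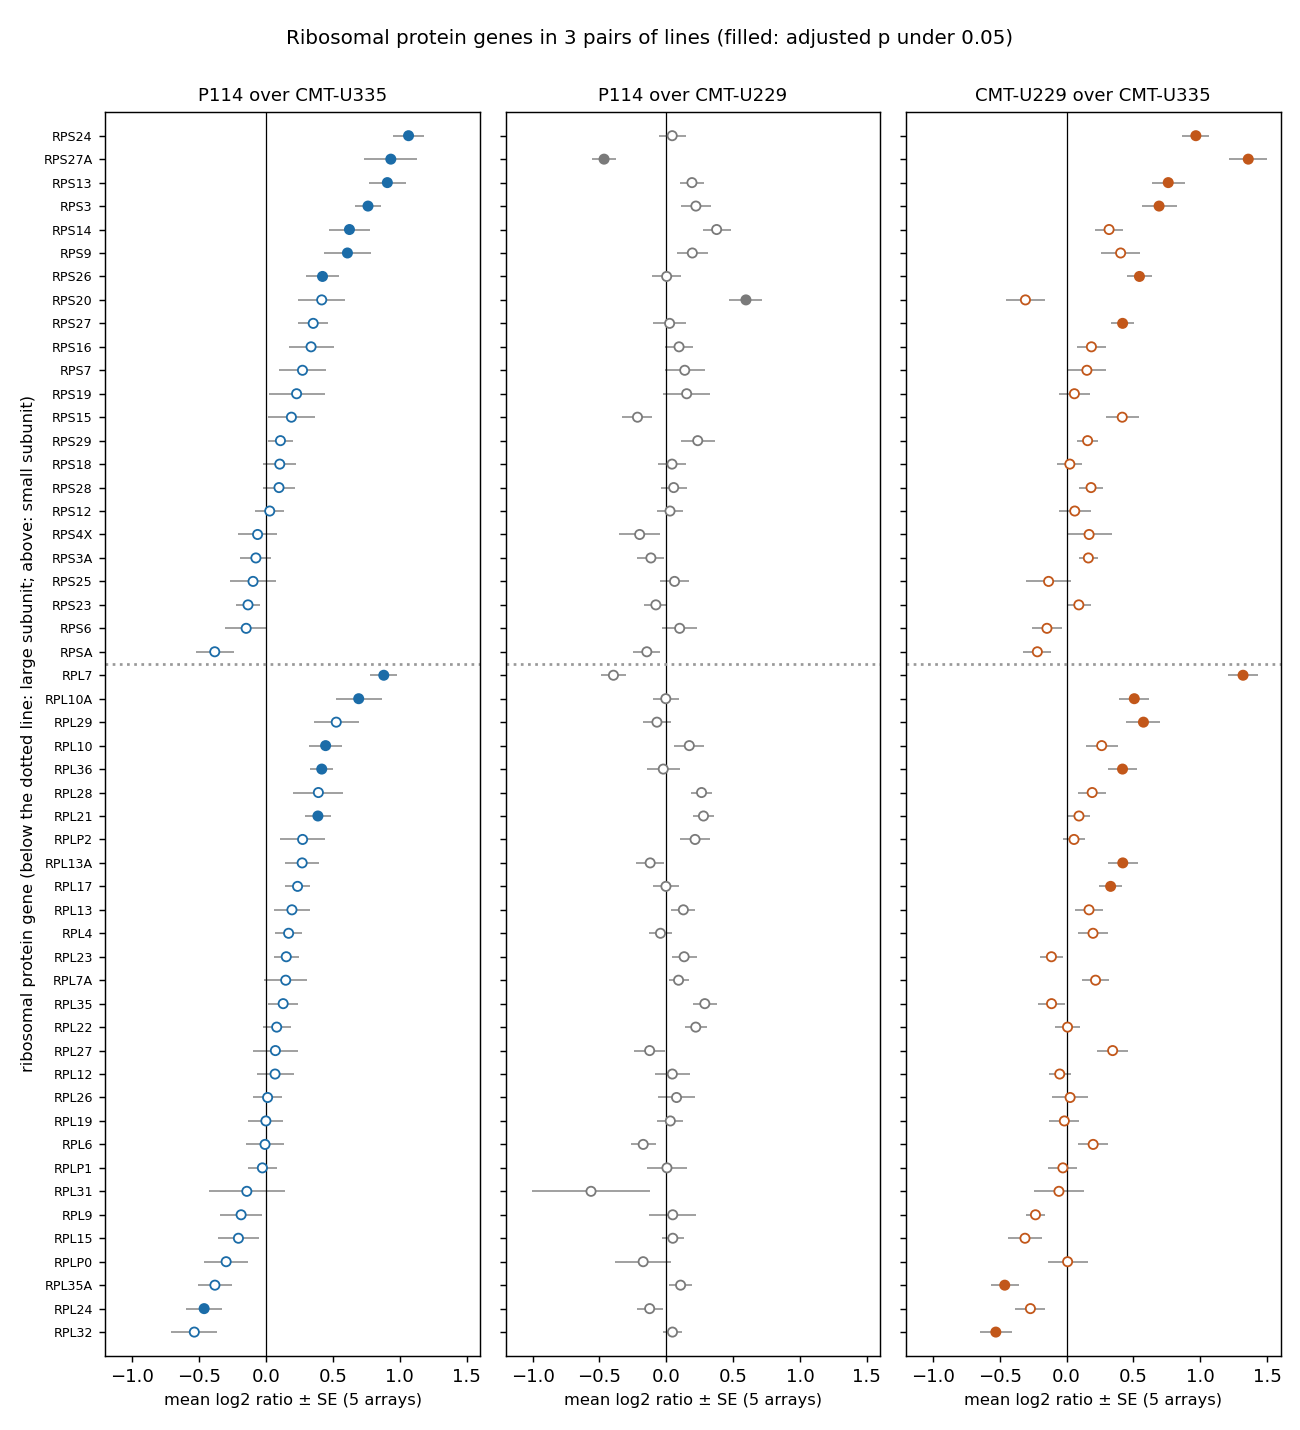
Mean log2 ratio ± SE over 5 arrays of each of the 52 ribosomal protein genes in the 3 pairs of lines, small subunit above the dotted line and large subunit below, ordered by the first pair. Filled points have an adjusted p below 0.05 in limma: 13 in P114 over CMT-U335, 2 in P114 over CMT-U229 and 14 in CMT-U229 over CMT-U335, with RPS24, RPS27A, RPS13, RPS3 and RPL7 farthest to the right on both outer panels.

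In the small subunit, 7 of 23 genes were higher in P114 than in CMT-U335 and none was lower, and 6 were higher in CMT-U229 than in CMT-U335 and none was lower. The shares higher were 30.4% and 26.1%, beside 7.89% and 8.77% of all genes, with 14.4% and 8.58% of all genes lower. RPS24, which is needed for maturation of the small subunit's ribosomal RNA and is changed in some patients with Diamond-Blackfan anaemia, had log2 ratios of 1.29, 1.06, 1.09, 1.31 and 0.58 on replicates 1 to 5 of P114 over CMT-U335. They were 0.71, 0.77, 0.94, 1.10 and 1.30 in CMT-U229 over CMT-U335, so all 10 values lay above 0 and replicate 5 was the lowest of the first pair and the highest of the second. The means were 1.07 ± 0.12 (2.09-fold, adjusted p = 0.000808) and 0.97 ± 0.10 (1.95-fold, adjusted p = 0.00117). Between P114 and CMT-U229 the values were 0.089, -0.037, 0.35, 0.094 and -0.27, on both sides of 0, with a mean of 0.044 ± 0.10. RPS24 had 1 probe.

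RPS27A is translated as a fusion of ubiquitin with a protein of the small subunit and so supplies both. Its values were 0.68, 1.51, 1.31, 1.09 and 0.075 in P114 over CMT-U335, all above 0, with replicate 5 the lowest. They were 1.73, 1.17, 1.18, 0.92 and 1.80 in CMT-U229 over CMT-U335, and in P114 over CMT-U229 -0.55, -0.17, -0.48, -0.49 and -0.64, all below 0. It was thus called in each pair, at 0.93 ± 0.20 (adjusted p = 0.0135), 1.36 ± 0.14 (adjusted p = 0.00117) and -0.47 ± 0.089 (adjusted p = 0.0243). The call in P114 over CMT-U335 was lost without replicate 3, and that in P114 over CMT-U229 without replicate 1, 3, 4 or 5. The latter was also lost in a fit over all 15 arrays (limma, adjusted p = 0.0960), in that fit with the replicate number as a block (0.160) and with apparent dye swaps averaged (0.0754). RPS27A had 1 probe, so no other probe could be set beside it.

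RPS13 and RPS3, 2 further proteins of the small subunit, followed with smaller ratios. RPS13 had 1.08, 0.94, 1.24, 1.01 and 0.27 in P114 over CMT-U335 and 0.64, 0.44, 0.64, 0.78 and 1.30 in CMT-U229 over CMT-U335, all above 0, and means of 0.91 ± 0.14 (adjusted p = 0.00347) and 0.76 ± 0.12 (adjusted p = 0.00668). For RPS3, which lines the channel where mRNA enters the ribosome, the values were 0.56, 0.89, 0.96, 0.94 and 0.47 and 1.00, 0.37, 0.45, 0.52 and 1.12, again above 0 on each array. Its means were 0.76 ± 0.10 (adjusted p = 0.00187) and 0.69 ± 0.13 (adjusted p = 0.0116). The means of RPS13 and RPS3 in P114 over CMT-U229 were 0.19 ± 0.091 and 0.22 ± 0.11, and neither was called (adjusted p = 0.324 and 0.356).

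The other small-subunit calls were of smaller size. RPS14, whose loss is known from the 5q- syndrome of the bone marrow, was higher in P114 than in CMT-U335 at 0.62 ± 0.16, and RPS9 at 0.61 ± 0.18. Both were above 0 on 4 arrays and below 0 on replicate 5 (-0.049 and -0.20). RPS26, which contacts mRNA at the exit channel, was called in that pair and in CMT-U229 over CMT-U335, at 0.42 ± 0.12 and 0.55 ± 0.091. RPS27 was called in CMT-U229 over CMT-U335 alone, at 0.42 ± 0.086, with 0.35 ± 0.11 (adjusted p = 0.0655) in P114 over CMT-U335. In P114 over CMT-U335 the calls of RPS14, RPS9 and RPS26 were lost without replicate 1, 2, 3 or 4, and that of RPS27 in CMT-U229 over CMT-U335 without replicate 2.

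In the large subunit, 5 of 29 genes were higher and 1 was lower in P114 than in CMT-U335, and 6 were higher and 2 lower in CMT-U229 than in CMT-U335. These were 17.2% higher and 3.45% lower, beside 7.89% and 14.4% of all genes, and 20.7% and 6.90%, beside 8.77% and 8.58%. RPL7 led both. Its values were 0.75, 1.00, 1.09, 1.05 and 0.52 in P114 over CMT-U335 and 1.37, 1.14, 1.15, 1.15 and 1.78 in CMT-U229 over CMT-U335, so that each array of the second pair exceeded each array of the first. The means were 0.88 ± 0.10 (1.84-fold, adjusted p = 0.00105) and 1.32 ± 0.11 (2.50-fold, adjusted p = 0.000548). It lay below 0 on each array of P114 over CMT-U229, at -0.32, -0.24, -0.18, -0.58 and -0.65, but its mean of -0.39 ± 0.096 was not called (adjusted p = 0.0541).

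RPL10A belongs to the L1 stalk, the mobile arm of the large subunit beside the exit site for tRNA. It had 0.82, 0.79, 1.20, 0.78 and -0.12 in P114 over CMT-U335, with replicate 5 alone below 0, and 0.68, 0.40, 0.67, 0.066 and 0.72 in CMT-U229 over CMT-U335. The means were 0.69 ± 0.17 (adjusted p = 0.0252) and 0.51 ± 0.11 (adjusted p = 0.0217), whereas P114 over CMT-U229 gave -0.0036 ± 0.099. RPL36 was called in both pairs with CMT-U335 too, at 0.42 ± 0.088 and 0.42 ± 0.11. For P114 over CMT-U335 alone, RPL10, a protein that joins the large subunit late in its assembly, was called at 0.45 ± 0.13 and RPL21 at 0.39 ± 0.096. For CMT-U229 over CMT-U335 alone, the calls were RPL29 at 0.58 ± 0.13, RPL13A at 0.42 ± 0.11 and RPL17, which lines the exit tunnel for the new protein, at 0.33 ± 0.086. A call in 1 pair and not in another does not show that the pairs differ, which was not tested.

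Of these large-subunit calls, those of RPL7 in both pairs and of RPL36 in P114 over CMT-U335 were kept whichever array was left out. RPL10A, RPL10 and RPL21 lost theirs in P114 over CMT-U335 without replicate 1, 2, 3 or 4, with the largest adjusted p at 0.0797, 0.124 and 0.0800. In CMT-U229 over CMT-U335, RPL10A lost its call without replicate 1, 2, 3 or 5 (0.0798), RPL36 without 1, 2, 4 or 5 (0.125), RPL13A without 1, 3, 4 or 5 (0.121), RPL17 without 2, 3, 4 or 5 (0.125) and RPL29 without 1, 3 or 5 (0.0718). Over both subunits, 11 of the 29 calls were kept whichever array was left out: RPS24, RPS13, RPS3 and RPL7 in both pairs with CMT-U335, RPL36 in P114 over CMT-U335, and RPS27A and RPS26 in CMT-U229 over CMT-U335.

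Few ribosomal genes were lower in a line than in CMT-U335, and all 3 belonged to the large subunit. RPL24, which forms part of a bridge between the subunits, had -0.36, -0.24, -0.13, -0.52 and -1.06 in P114 over CMT-U335, all below 0, with a mean of -0.46 ± 0.14 (adjusted p = 0.0475). That call was lost whichever array was left out (adjusted p from 0.0527 to 0.122). In CMT-U229 over CMT-U335, RPL32 had -0.41, -0.91, -0.63, -0.60 and -0.094 and RPL35A, which is among the genes changed in Diamond-Blackfan anaemia, -0.19, -0.53, -0.28, -0.85 and -0.46, all below 0. The means were -0.53 ± 0.12 (adjusted p = 0.0228) and -0.46 ± 0.11 (adjusted p = 0.0249). RPL32 lost the call without replicate 2, 3 or 4 and RPL35A without replicate 2 or 5.

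The values of RPL32 and RPL35A in P114 over CMT-U335 did not pass the threshold. RPL32 had -0.43, -0.36, -0.36, -0.15 and -1.38 there, with replicate 5 far below the others, and a mean of -0.54 ± 0.17 (adjusted p = 0.0643), and RPL35A had -0.38 ± 0.13 (adjusted p = 0.0704). With each array set to the ribosomal median, RPL24, RPL32, RPL35A and RPSA were called lower than the class in both pairs with CMT-U335. RPL32, for example, was then -0.69 ± 0.17 and -0.68 ± 0.10.

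Between P114 and CMT-U229 the class differed little in size, with a median of 0.046. Its means lay above 0 for 34 of the 52 genes (65.4%), beside 46.5% of all genes, but the members moved together from array to array. On replicate 2 the median was 0.34 with 47 genes above 0, whereas on replicates 1, 4 and 5 it was below 0. RPS20, a small-subunit protein, was the only member called higher in P114, with 0.58, 0.96, 0.81, 0.47 and 0.15 on the 5 arrays, all above 0, and a mean of 0.60 ± 0.12 (adjusted p = 0.0328). It lost the call without replicate 1, 2, 3 or 4 (largest adjusted p = 0.108). In the pairs with CMT-U335 its means were 0.42 ± 0.18 and -0.31 ± 0.15, neither called. The other call was RPS27A, above. RPL31, second to RPS20 in size, had a mean of -0.56 ± 0.44 and was not called (adjusted p = 0.622): its values were -0.013, -0.38, 0.29, -2.86 and 0.15, and replicate 4 alone set the mean.

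**Figure D3:**
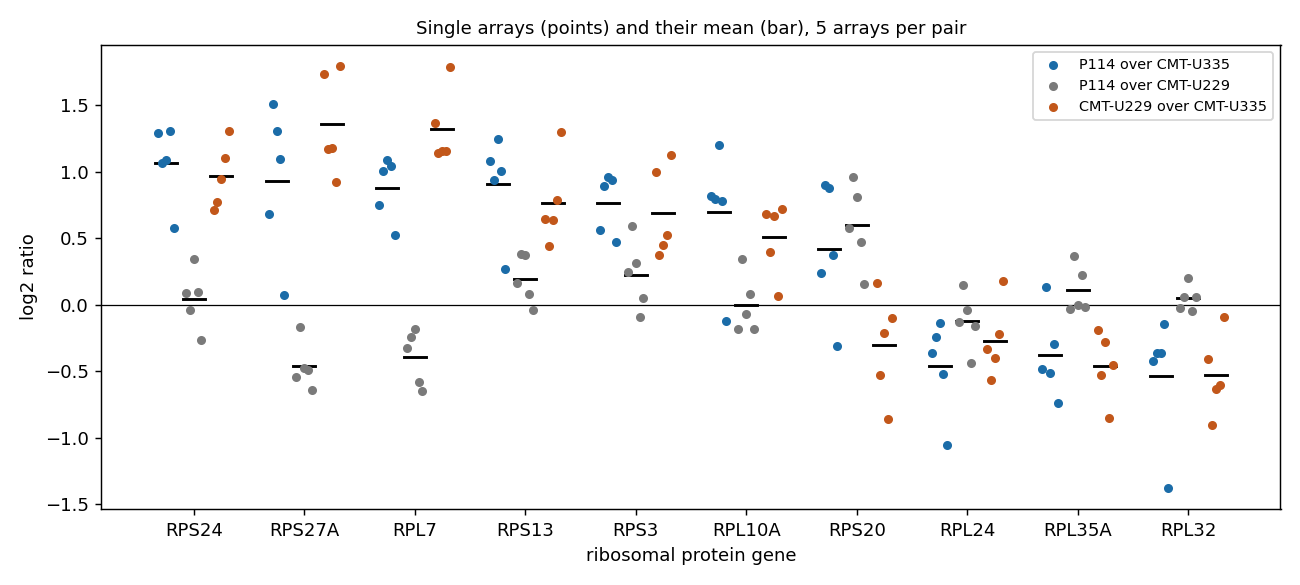
Log2 ratios on single arrays (points) and their mean (bar) for 10 ribosomal protein genes, with the 3 pairs of lines in blue, grey and orange and 5 arrays for each. RPS24, RPL7, RPS13 and RPS3 lie above 0 on every array of both pairs with CMT-U335, while RPL7 and RPS27A lie below 0 on every array of P114 over CMT-U229.

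Some members with roles of their own were not called in any pair. The stalk proteins RPLP0, RPLP1 and RPLP2, which recruit elongation factors to the large subunit, had means in P114 over CMT-U335 of -0.30 ± 0.16, -0.027 ± 0.11 and 0.27 ± 0.17. In P114 over CMT-U229 they had -0.17 ± 0.21, 0.0052 ± 0.15 and 0.22 ± 0.11, and in CMT-U229 over CMT-U335 0.0081 ± 0.15, -0.027 ± 0.11 and 0.056 ± 0.082. RPS6, the substrate of S6 kinases, had -0.15 ± 0.15, 0.10 ± 0.13 and -0.15 ± 0.11 in P114 over CMT-U335, P114 over CMT-U229 and CMT-U229 over CMT-U335. RPSA, also known as the laminin receptor, had -0.38 ± 0.14, -0.15 ± 0.10 and -0.22 ± 0.10, its first mean being the closest to a call (adjusted p = 0.0996).

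RPS19, the gene most often changed in Diamond-Blackfan anaemia, had 0.23 ± 0.21, 0.15 ± 0.17 and 0.059 ± 0.11 in the same order, and the X-linked RPS4X had -0.063 ± 0.15, -0.20 ± 0.15 and 0.17 ± 0.17. RPL22, whose paralogue RPL22L1 lies outside the rule, had 0.08 ± 0.11, 0.22 ± 0.082 and 0.0075 ± 0.097. RPL5 and RPL11, which carry the 5S RNA and bind MDM2 when assembly fails, are not analysed here. Of 10 genes changed in Diamond-Blackfan anaemia, 6 were measured: 2 were higher in P114 than in CMT-U335 (RPS24 and RPS26), 2 were higher and 1 lower in CMT-U229 than in CMT-U335 (RPS24, RPS26 and RPL35A), and none was called between P114 and CMT-U229, where none had an unadjusted p below 0.05 either (19.1% of all genes had). The calls were 33.3%, 50% and 0% of the 6, beside 22.3%, 17.3% and 7.3% of all genes. Their medians were 0.25, 0.11 and 0.092 in these pairs, and the other 3 were RPS7, RPS19 and RPL26.

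Several genes were measured by more than 1 probe, which allows a check within an array. Among the called members, RPS24, RPS27A, RPS20, RPS14, RPS9, RPS27 and RPL32 had 1 probe each and could not be checked so. They include RPS20 and RPS27A, the only members called in P114 over CMT-U229. All 4 probes of RPL7 were called higher in both pairs with CMT-U335, from 0.66 to 1.04 in P114 and from 1.09 to 1.50 in CMT-U229, and 3 of the 4 were called lower in P114 than in CMT-U229. All 7 probes of RPL10A were called in P114 over CMT-U335 (0.56 to 0.76) and 6 of 7 in CMT-U229 over CMT-U335. The 3 probes of RPS13 were called in both pairs, from 0.81 to 1.00 and from 0.64 to 0.94. For each of these 3 genes the probes of a pair with CMT-U335 all lay on the same side of 0.

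RPS3 was different. Of its 7 probes, 5 gave 0.81 to 1.24 in P114 over CMT-U335 and 0.75 to 1.13 in CMT-U229 over CMT-U335, each called, whereas the same 2 others gave -0.027 to 0.21 and 0.086 to 0.13, none called. Its mean of 0.76 in P114 over CMT-U335 therefore lay between 2 sets of probes. RPL10 had probes at 0.12 to 0.67 in that pair, and RPL24 had 2 of 4 probes called lower in each pair with CMT-U335. Of the 2 probes of RPSA, 1 was called lower in each pair with CMT-U335. No member had probes called in opposite directions in any pair. Ribosomal protein genes have many processed pseudogenes and some close paralogues, so a cDNA probe can bind transcripts of more than 1 locus, and what each probe bound was not tested.

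**Figure D4:**
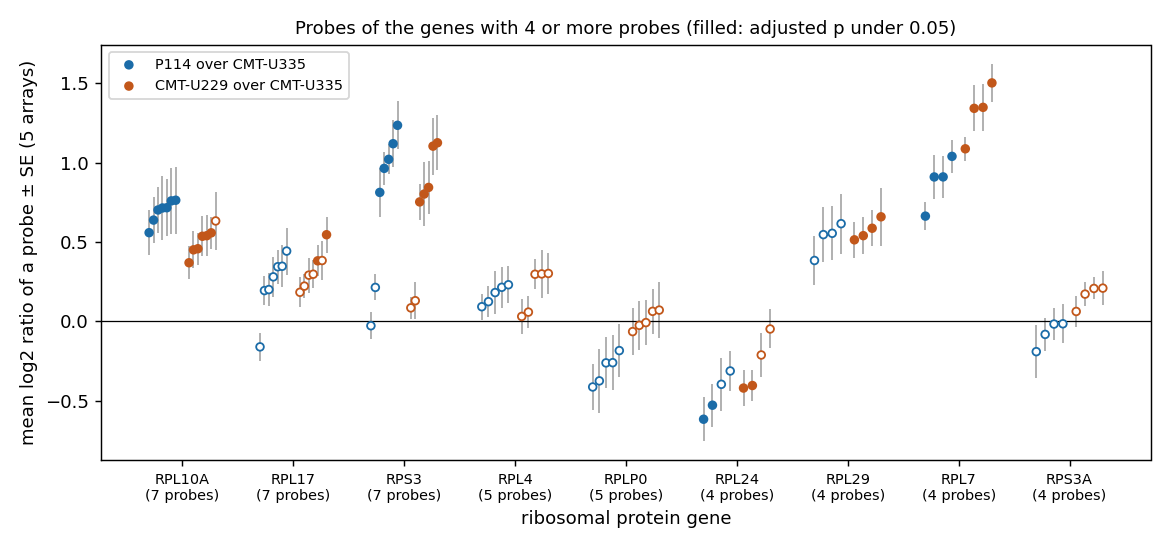
Mean log2 ratio ± SE over 5 arrays of each probe of the 9 ribosomal protein genes with 4 or more probes, in P114 over CMT-U335 (blue) and CMT-U229 over CMT-U335 (orange), ordered by value within a gene. Filled points have an adjusted p below 0.05: all 4 probes of RPL7 in both pairs, but 5 of the 7 probes of RPS3, whose other 2 lie from -0.027 to 0.21.

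A loop fit over all 15 arrays placed the 3 lines on 1 scale, each as a log2 distance from the mean of the lines. It called a difference among the lines for 24 of the 52 members, 46.2%, beside 40.7% of all genes. CMT-U335 was the lowest line for 18 of these 24 (75%), against 31.7% of all genes called in this fit. P114 was the lowest for 2 of the 24 (44.1% of all genes called), namely RPL24 and RPSA, and CMT-U229 for 4 (24.2%), namely RPL32, RPL35, RPL35A and RPS20. The highest line was P114 for 11 (45.8%), CMT-U229 for 9 (37.5%) and CMT-U335 for 4 (16.7%), beside 23.0%, 29.6% and 47.4% of all genes called. These ranks rest on no test between lines of adjacent rank, and some were near ties. RPS27 was at 0.126 ± 0.053 in P114 and 0.131 ± 0.053 in CMT-U229, and RPL32 at -0.163 ± 0.064 and -0.192 ± 0.064.

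The single positions show how far the lines lay apart. RPS27A was at 0.16 ± 0.077 in P114, 0.61 ± 0.077 in CMT-U229 and -0.76 ± 0.077 in CMT-U335, and RPL7 at 0.16 ± 0.048, 0.57 ± 0.048 and -0.73 ± 0.048. RPS24 was at 0.37 ± 0.051, 0.31 ± 0.051 and -0.68 ± 0.051, so P114 and CMT-U229 lay close together above CMT-U335. For RPS20 the order was P114 (0.34 ± 0.078), CMT-U335 (-0.036 ± 0.078) and CMT-U229 (-0.30 ± 0.078). For loop closure, the direct ratio of P114 over CMT-U335 differed from the sum of the other 2 by under 0.2 for 50 of 52 genes. No member was called for a break of the loop, and 0% of the 5246 genes (limma, 0 members and 17 genes at an unadjusted p below 0.05). Those 17 were 0.324% of all genes, fewer than such a threshold gives by chance, so the test may have missed breaks. So few also means that the errors of this test, which takes the arrays as independent, may be wrongly sized. The loop fit was made over the same arrays, so its SEs and its calls among the lines carry the same caution. Whether they hold was not tested. No member was called for a dye effect either (limma, smallest adjusted p = 0.144, 1 member at an unadjusted p below 0.05), beside 11.7% of all genes. The members' dye effects still leaned to one side, with 39 of the 52 above 0 and a median of 0.051, beside -0.00052 over all genes.

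The labels do not say which arrays are dye swaps of 1 RNA pair. As an alternative, the arrays of opposite dyes that lay closest over selected genes outside the members were taken as couples. For P114 over CMT-U229 these were replicates 1 and 3 and replicates 2 and 5, and in CMT-U229 over CMT-U335 replicates 2 and 3 and replicates 4 and 5. In P114 over CMT-U335 the best match (1 and 3, 4 and 5) was less clear. The members did not lie alike within each couple, with medians of 0.34 and -0.047 on replicates 2 and 5 of P114 over CMT-U229 and of 0.025 and 0.46 on replicates 4 and 5 of CMT-U229 over CMT-U335. With each such couple averaged, 10 members were called higher and 1 lower in P114 than in CMT-U335, beside 6.12% and 9.84% of all genes. For CMT-U229 over CMT-U335, 6 were higher and none lower, beside 4.37% and 3.45%, and in P114 over CMT-U229 none was called, beside 1.51%. The 6 were RPS27A, RPL7, RPS24, RPS13, RPS3 and RPL10A, and 16 of the 29 calls were kept in all.

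Among 17 measured genes whose mRNAs carry the TOP tract but lie outside the rule, 8 were higher and 1 was lower in P114 than in CMT-U335, and 8 were higher and none lower in CMT-U229 than in CMT-U335. These shares, 47.1% and 5.88%, and 47.1% and 0%, stand beside 7.89% and 14.4%, and 8.77% and 8.58%, of all genes. Their medians were 0.20 and 0.12. Among translation factors over CMT-U335, EIF3E was at 1.55 ± 0.095 in P114 and 1.38 ± 0.081 in CMT-U229, EEF1D at 1.53 ± 0.19 and 1.07 ± 0.20, EIF3H at 1.50 ± 0.11 and 1.33 ± 0.09. TPT1, a growth-related protein, was at 1.51 ± 0.12 and 1.59 ± 0.14, the latter being the largest mean of the list in that pair. NAP1L1, a histone chaperone, was the only call in P114 over CMT-U229, at -0.50 ± 0.095, or 5.88% of the list beside 7.3% of all genes. It was lower in P114 than in CMT-U335 as well (-0.47 ± 0.099). In the RefSeq gene table of the dog, EIF3E, EEF1D, EIF3H and PABPC1 lie on chromosome 13. Outside it 13 were measured, with 4 higher and 1 lower in P114 and 4 higher and none lower in CMT-U229, each over CMT-U335 (30.8% and 7.69%, and 30.8% and 0%, beside the same shares of all genes). Besides TPT1 the 4 (named after their values were seen) were NPM1, which shuttles between nucleolus and cytoplasm, at 1.05 ± 0.096 and 0.87 ± 0.11, EIF3F at 0.74 ± 0.11 and 0.85 ± 0.11, and EEF1A1 at 0.73 ± 0.088 and 0.71 ± 0.16. Over all 13 the medians were 0.063 in P114 and -0.015 in CMT-U229, so as a list they did not lean clearly upward. Means lay above 0 for 61.5% and 46.2% of the 13, beside 45.2% and 48.9% of all genes.

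Of 20 measured factors for ribosome assembly and ribosomal RNA, 3 were higher and 2 lower in P114 over CMT-U335, with a median of -0.011, so the list did not lie to one side, and the 25% called was close to the 22.3% of all genes. The processing factors UTP3 and NOP16 were at 1.02 ± 0.11 and 0.62 ± 0.091, while WDR12, part of a complex for maturation of the large subunit, was at -0.83 ± 0.074 and WDR36 at -0.50 ± 0.089. UTP3, like the TOP genes set apart above, lies on chromosome 13. For CMT-U229 over CMT-U335, 7 were higher and 1 lower (40% of the list called, beside 17.3% of all genes, median 0.13). DKC1, the pseudouridine synthase of small nucleolar ribonucleoproteins, was at 0.98 ± 0.11, UTP3 at 0.73 ± 0.10, NOP16 at 0.68 ± 0.092 and EBNA1BP2 at 0.56 ± 0.093. The lower gene was again WDR12, at -0.38 ± 0.098. In P114 over CMT-U229 limma called none (3 at an unadjusted p below 0.05, and none with the apparent dye swaps averaged), with BMS1 at -0.42 ± 0.12 and DDX21 at 0.058 ± 0.11.

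The neighbours of a called member on its chromosome, up to 5 measured genes on each side in the RefSeq order, give a local background. For RPS24, RPS13 and RPL10A none of 10 neighbours exceeded the member in either pair with CMT-U335, and the medians of the neighbours were 0.066 and 0.079 for RPS24, 0.11 and 0.092 for RPS13, and -0.13 and -0.14 for RPL10A. These members had large ratios, so few genes of any place could exceed them, and that count alone says little about the locus. For RPL7 none exceeded it, but 4 of 10 were called higher in each of these pairs (medians 0.12 and 0.20), beside 7.89% and 8.77% of all genes. Of the 10 neighbours of RPS3, 3 were called higher and 1 exceeded it in P114 over CMT-U335 (median 0.059). In CMT-U229 over CMT-U335 none of them was called or exceeded it (median 0.088). For RPS27A in CMT-U229 over CMT-U335, 5 of its 10 neighbours were called higher (median 0.41) and 1 exceeded it. In P114 over CMT-U229, 3 of them were called lower (median -0.57), beside 3.98% of all genes, and 5 of the 10 lay below RPS27A's own mean of -0.47. In P114 over CMT-U335 the neighbours of RPL10 had a median of 0.29, and 2 of 10 exceeded it. For RPL24, RPL32 and RPL35A in that pair, 3 of 10, 3 of 10 and 3 of 9 were called lower, beside 14.4% of all genes. Another 1, 2 and 0 were called higher, and the medians were -0.25, -0.10 and -0.20.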

How the data were processed

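Per the labels' protocols, total RNA from 3 cell lines was amplified by T7 transcription and coupled to Cy3 or Cy5. The deposited table holds ratios of both dyes on 15 arrays, normalized by the authors and read here as log2 values. Their log base and normalization method were not given in the sources used here. With base 2, the absolute value farthest from 0, which is 12.43, means a 5511-fold ratio. As a natural log it would be 249732-fold, more than the 65536 steps of a 16-bit image allow. Precision is limited by the number of arrays, and without intensities, which were not used here, the distance of a gene from background is unknown.

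Of 22176 probes, 7694 carried 1 gene symbol in the platform annotation and 14482 none. For 7340 probes, including those of 51 members, the current symbol was taken from the RefSeq table of assembly UU_Cfam_GSD_1.0 by Entrez identifier. RPL10 was placed in that table by its symbol. Signs were turned to 1 order of the lines per pair, and a gene's probes were averaged on each array, giving 5246 genes. A gene needed values on at least 3 of 5 arrays, and 2 values were missing in the table.

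The mean of each pair's 5 arrays was tested against 0 by limma 3.58.1 under R 4.3.3, using lmFit and eBayes as a two-sided test with Benjamini-Hochberg adjustment over all genes and a threshold of 0.05. The series design names SAM, and limma took its place. The scripts were tested on simulated data. Loop closure and dye effect were fitted over all 15 arrays. Apparent dye swaps were the couples of arrays of opposite dyes that lay closest over genes outside the members with an SD above 0.5 in the pair and a dye effect under 0.1 in the others. They left a median of 0.0507 of a gene's spread within couples in P114 over CMT-U229 (208 genes, 0.380 for the next best choice), 0.107 in CMT-U229 over CMT-U335 (133 genes, 0.403) and 0.384 in P114 over CMT-U335 (121 genes, 0.490).

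The members and lists were chosen with earlier results of these data known. Members called in a pair were named, up to 15 per pair and direction, with the 2 largest means of each pair, members of known role, and up to 4 called genes of each other list. Alternatives were array medians at 0, scale normalization, a dye term, stricter and looser filters on missing values, the 15 arrays in 1 fit with and without the replicate number as a block, a SAM-type test, thresholds of 0.01 and 0.10, medians over probes, single probes, swaps averaged, each array left out, and, chosen after seeing the data, the ribosomal median of each array at 0.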

Additional observations from a re-analysis of the deposited data

Results flagged for a closer look

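The 5 arrays of a pair were searched for a value far from the other 4 in 90 groups, made up of 29 named members and the ribosomal median in each of 3 pairs. It was found in 6 of them, where chance gives about 1 in 20.

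Replicate 5 of P114 over CMT-U335 gave 3 of the 6. RPL10 had -0.12 on it, against 0.47 to 0.68 on the other arrays, RPL22 had -0.35 against 0.094 to 0.27, and RPL32 had -1.38 against -0.43 to -0.15. On that array the median of all 52 ribosomal genes was -0.39.

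For P114 over CMT-U229, RPL31 had -2.86 on replicate 4, against -0.38 to 0.29, and RPS9 had 0.69 on replicate 2, against 0.00036 to 0.13. RPL31 had 2 probes there, with means of -1.15 and 0.023. On replicate 2 the ribosomal median was 0.34.

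For CMT-U229 over CMT-U335, RPS27 had 0.73 on replicate 5, against 0.26 to 0.40, on an array whose ribosomal median was 0.46.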

How the results depend on the processing

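Array medians at 0 and the filters on missing values ended none of the 29 member calls, and no alternative reversed a call. Same-numbered arrays of different pairs deviated with correlations from -0.25 to 0.33. Arrays of different numbers were not set beside them, so whether the replicate number pairs the arrays was not settled. With that number as a replicate block over all 15 arrays, P114 over CMT-U335 had 14 members higher and 3 lower (8.1% and 14.2% of all genes), CMT-U229 over CMT-U335 11 and 2 (8.83% and 8.71%), and P114 over CMT-U229 1 and 0 (4.12% and 5.7%). RPS27A lost its call in P114 over CMT-U229 and RPL13A its call in CMT-U229 over CMT-U335, and no other call was lost with the block. Without the block, that fit gave 4 lower in P114 over CMT-U335 and 2 higher in P114 over CMT-U229. In the order P114 over CMT-U335, P114 over CMT-U229 and CMT-U229 over CMT-U335, the main counts were 12 higher and 1 lower, 1 and 1, and 12 and 2. Leaving out 1 array gave 5 to 22 and 0 to 3, 0 to 1 and 0 to 1, and 7 to 9 and 0 to 2. The loop fit gave 19 and 4 in the first pair (12.6% and 20.9% of all genes) and 4 and 2 in the second (7.4% and 12.7%). The caution on the SEs of the loop fit, given above, holds for these counts too. Swaps averaged gave 0 and 0 in the second pair and 6 and 0 in the third. The ribosomal median at 0 gave 6 and 4, 1 and 2, and 7 and 7. A threshold of 0.01 gave 4 and 0, 0 and 0, and 5 and 0, and 0.10 gave 4 lower in the first pair and 3 and 2 in the second. A dye term left 0 lower in the first pair, the SAM-type test gave 3 lower there and 2 lower in the second, and medians over probes gave 2 lower in the second. Genes with any called probe numbered 2 lower in the first pair, 2 and 2 in the second and 4 lower in the third. The median log2 ratio of the members was 0.046 in P114 over CMT-U229 and -0.025 without replicate 2, so it changed sign. In both pairs with CMT-U335 it moved without replicate 5, as given above. The causes were not tested. Unknown signal over background limits every ratio here, and pseudogenes and paralogues limit what a probe names.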

Other observations

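The genes named here lie outside the rule for the 52 members and were chosen after their values were seen. RPL22L1, the paralogue of RPL22, had larger means against CMT-U335 than any member. Its values were 2.44, 1.13, 1.43, 2.69 and 2.39 in P114 over CMT-U335, and in CMT-U229 over CMT-U335 2.50, 3.09, 3.44, 1.84 and 1.15, all above 0. The means were 2.02 ± 0.24 (4.05-fold, adjusted p = 0.00106) and 2.40 ± 0.32 (5.29-fold, adjusted p = 0.00287), by limma over 5 arrays. RPL22 itself had 0.080 ± 0.11 and 0.0075 ± 0.097 in the same pairs. For P114 over CMT-U229 RPL22L1 had -1.15, -1.73, -0.39, 1.39 and -1.28, with replicate 4 alone above 0, and its mean of -0.63 ± 0.42 was not called (adjusted p = 0.526). It was measured by 1 probe.

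Other paralogues had smaller ratios. RPL26L1 was called in P114 over CMT-U335, at 0.39 ± 0.10 (adjusted p = 0.0326), but its 2 probes gave 0.052 and 0.73 there. RPL26, its partner among the members, had 0.012 ± 0.11. RPS27L, a target of p53, had -0.037 ± 0.075, 0.26 ± 0.11 and -0.34 ± 0.13 in P114 over CMT-U335, P114 over CMT-U229 and CMT-U229 over CMT-U335, none called. RPL36AL had -0.16 ± 0.076, 0.11 ± 0.083 and -0.18 ± 0.091 in the same order, also not called. FAU, which encodes a further protein of the small subunit fused to a ubiquitin-like part, had means of 0.063 ± 0.11, 0.12 ± 0.095 and 0.096 ± 0.099, and RACK1, a scaffold on the small subunit, had 0.14 ± 0.12, 0.29 ± 0.11 and -0.11 ± 0.11, none called.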
